A study of Drosophila melanogaster with 3 samples.

Results

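The basement membrane genes are 10 genes of *Drosophila melanogaster* chosen by name: the laminin chain genes LanA, LanB1, LanB2 and wb, the collagen IV genes Col4a1 and vkg, the perlecan gene trol, the nidogen gene Ndg, and SPARC and Ppn, whose products act beside these networks. They are 10 of the 13945 protein-coding genes annotated on the 6 chromosome arms. Their occupancy by the transcription factor HLH54F was read from ChIP-seq peak lists of whole embryos aged 0 to 24 h, males and females pooled. The embryos came from a line that stably expresses HLH54F with GFP at its C terminus, and chromatin was precipitated with an antibody against GFP according to the sample descriptions, although another label gives HLH54F as the antibody. All 3 biological replicates belong to 1 group that carries this same transgene, and no second condition was analysed here, so binding was described without a test between groups. The pooled list, made from all 3 replicates together, held 23689 peaks in dm6. Its 4246 peaks of highest signal are the optimal list, the peaks that the authors kept after comparing the replicates. Peaks were given to a gene by their summits, counting the gene itself and the 2 kb before it, which yielded 36 distinct pooled peaks for the 10 genes.

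HLH54F is a basic helix-loop-helix (bHLH) factor of the caudal visceral mesoderm, whose cells migrate along the embryo and form the longitudinal muscles of the gut. The basement membrane is the thin matrix sheet under epithelia and around muscle and gut. Laminin heterotrimers, each of an alpha, a beta and a gamma chain, form a sheet at the cell surface, collagen IV forms a second, covalently stabilised network, and perlecan and nidogen connect them. In the fly, blood cells and the fat body are known to secrete much of the collagen IV. Because chromatin came from whole embryos, weak occupancy in many cells and strong occupancy in few cells cannot be told apart.

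The sequences at 4 summits are printed because they carry the strongest peaks of these genes and the peak between the collagen IV genes. Each is read 5′ to 3′ on the strand of the gene from the release 6 genome of RefSeq, in dm6 coordinates, and capitals mark CANNTG, the E-box core that bHLH proteins recognise. The trol window (chrX:2533971-2534171, minus strand) lies in an intron and surrounds the optimal peak. The LanA window (chr3L:6217246-6217446, minus strand) covers the end of the first intron and the first 4 bases of the next coding exon. The LanB2 window (chr3L:9614052-9614252, plus strand) is intergenic and upstream of the gene. The Col4a1 and vkg window (chr2L:5029430-5029608, plus strand) ends at the last base before the Col4a1 start site. Each begins 100 bases before the summit.
trol: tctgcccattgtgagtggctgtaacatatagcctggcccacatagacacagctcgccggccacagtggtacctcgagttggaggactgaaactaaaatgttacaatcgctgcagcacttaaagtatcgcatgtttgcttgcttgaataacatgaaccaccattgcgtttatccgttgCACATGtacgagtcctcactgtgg
LanA: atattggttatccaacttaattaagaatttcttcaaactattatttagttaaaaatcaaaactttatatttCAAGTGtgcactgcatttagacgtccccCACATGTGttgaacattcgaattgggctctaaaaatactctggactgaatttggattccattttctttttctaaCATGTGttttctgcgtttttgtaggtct
LanB2: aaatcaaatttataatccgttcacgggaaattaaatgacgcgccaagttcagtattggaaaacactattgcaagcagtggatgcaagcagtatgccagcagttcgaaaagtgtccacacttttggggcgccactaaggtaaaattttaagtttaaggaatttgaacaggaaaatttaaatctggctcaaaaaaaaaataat
Col4a1 and vkg: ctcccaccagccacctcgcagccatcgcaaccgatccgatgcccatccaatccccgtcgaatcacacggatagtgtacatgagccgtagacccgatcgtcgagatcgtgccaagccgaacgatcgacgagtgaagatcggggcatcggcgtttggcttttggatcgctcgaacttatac
The LanA window held 4 CANNTG matches, of which CACATG and CATGTG overlap in the run CACATGTG, and the trol window held 1. The LanB2 and collagen IV windows held none.

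Of the 10 genes, 1 had an optimal peak (trol, 10%, exact 95% interval 0.253 to 44.5%), against 4273 of all 13945 protein-coding genes (30.6%). The interval includes the share of all genes. A pooled peak lay at 9 of the 10 genes, all but SPARC, against 67.3% of protein-coding genes. Among the 9387 genes with a pooled peak in their window, 45.5% also had an optimal peak, against 1 of 9 here. Most windows of these genes are long. All genes were ranked by window length into 10 equal bins. Of the 10 here, 5 fell in bin 9, where 44.3% of genes had an optimal and 90.7% a pooled peak. Another 4 fell in bin 10, where 51.6% and 95.3% had one, and SPARC fell in bin 6 (29.3% and 68.6%). Beside genes of such window length, 9 of 10 with a pooled peak is no higher than usual. The interval for optimal peaks covers all 10 genes, of which only 4 are in bin 10. It just includes the 44.3% of bin 9 but not the 51.6% of bin 10, and no difference from either bin was tested. Per 10 kb of window the basement membrane genes held 1.5 pooled peaks and 0.0405 optimal peaks, against 2.25 and 0.489 over all protein-coding genes. Over the 36 peaks the authors' signal value ranged from 28.3 to 122 with a median of 36.7, against a median of 42.4 over all pooled peaks and 38.1 over pooled peaks outside the optimal list. The strongest peak of each gene had a median signal of 50.8 over the 9 genes with a peak, against 82.6 over the 9387 genes, and 6 of the 9 genes were below that value, while trol, LanA and LanB2 were above it. Col4a1 and vkg share their strongest peak, which counts for both genes here. In the pooled list 17.9% of peaks were optimal, against 1 of 36 at these genes.

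**Figure D1:**
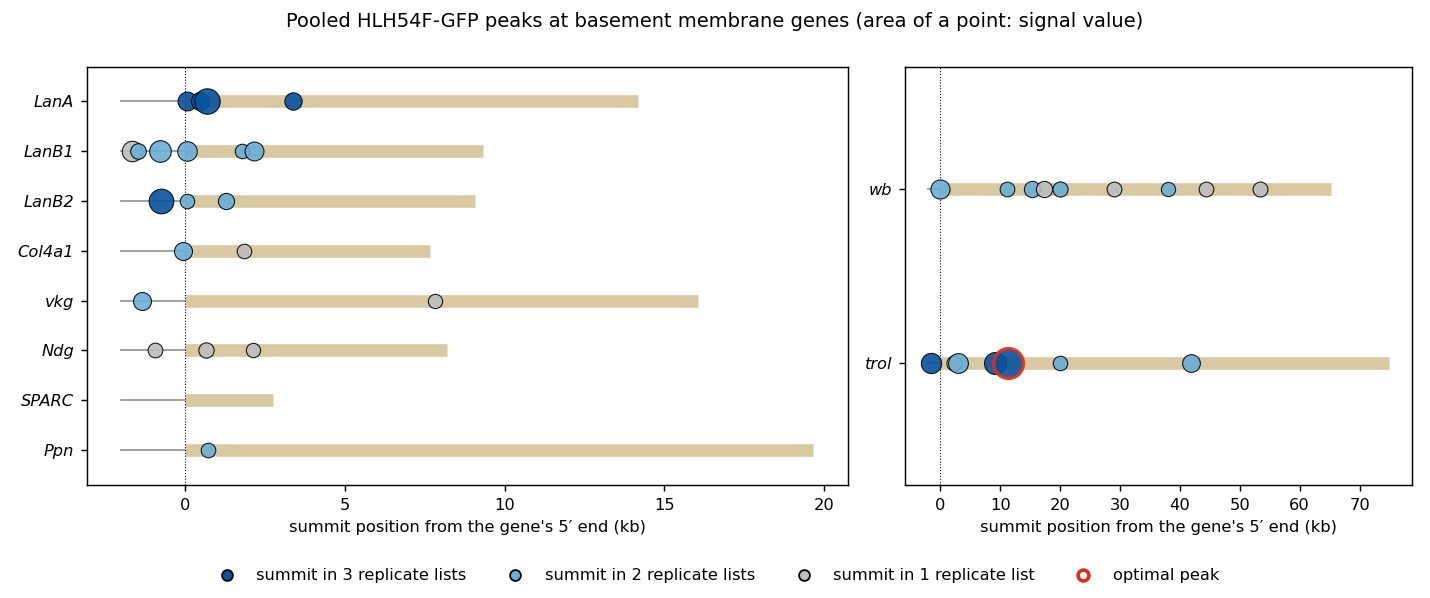
Position of each pooled summit (x axis, kb from the 5′ end of the gene) at the basement membrane genes, with the gene body as a tan bar, the 2 kb upstream as a grey line and the signal value as the area of a point. Colour gives the number of replicate lists that hold the summit; the peak ringed in red, in trol, is the 1 optimal peak, and SPARC has none.

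Among the laminin genes, LanA, which encodes an alpha chain, came closest to the optimal list. Its strongest peak (3L, 6217136 to 6217555) had a signal of 90.1, just under the lowest optimal signal of 92.7, and its summit lay 676 bp downstream of the single LanA start site, in the first intron. Ranked by signal in the replicates' own lists, which hold 30000, 30000 and 24914 peaks, the site ranked 7434, 2967 and 4593 in replicates 1, 2 and 3. Relative to list length this is 17.7% ± 7.47 (SD, n = 3), where 0% is the strongest peak. A weaker pooled summit 207 bp away (signal 47.1) fell in the same replicate peaks, so the pair are not separate observations. Weaker signals lay 42 bp downstream of the start (49.2; ranks 18633, 15353 and 8595) and 3377 bp downstream in a coding exon (42.0; ranks 24804, 22835 and 7406). All 4 LanA peaks were thus present in every replicate list, and these last 2 peaks ranked highest in replicate 3.

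LanB1, the beta chain gene, had 6 pooled peaks, more per kb than any of the other 9 genes (0.529, against a median of 0.232 over protein-coding genes). The strongest (2L, 7810427 to 7810846, signal 65.2) lay 801 bp upstream of LanB1 and 66 bp downstream of the start of Cdc14, a phosphatase gene transcribed in the opposite direction whose start is 735 bp from that of LanB1. It ranked 29730 in replicate 1 and 2581 in replicate 2, and was not in the list of replicate 3. The next 2 peaks by position upstream (58.4 and 34.1) lay in a Cdc14 intron. At the LanB1 start itself a peak of signal 53.2 had its summit 65 bp downstream (ranks 9193 and 3981 in replicates 1 and 2). A pair of peaks followed in the first intron, 1140 and 769 bp before the second LanB1 start (29.5 and 49.7). None of the 6 summits lay in a peak of replicate 3, while 5 were in replicate 1 and 6 in replicate 2. The first 2 by position, 199 bp apart, fell in the same peak of replicate 2, so this pair is not separate there. Replicate 3 had 1 summit of its own in the LanB1 window, at rank 8708.

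LanB2, the single gamma chain gene of the fly, had its strongest peak upstream (3L, 9613942 to 9614361, signal 84.9), 762 bp before the start site in intergenic sequence. It ranked 12634, 6794 and 2000 in replicates 1, 2 and 3, or 24.3% ± 17.1 of list length (SD, n = 3), so the replicates spread from 8.03% to 42.1%. Without replicate 1 the mean was 15.3%. Weaker peaks lay 53 bp downstream of the first LanB2 start (29.5) and 227 bp downstream of the second (36.5). Both were in replicates 1 and 2 and absent from the list of replicate 3.

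The second alpha chain gene, wb, spans 65236 bp and held 9 pooled peaks of low signal, between 28.4 and 50.8. The strongest lay at its first start (2L, 14262835 to 14263254, summit 18 bp downstream), with ranks of 22589 in replicate 1 and 10504 in replicate 2. A peak 18 bp before the second start, which is internal to the gene, had a signal of 28.4. The other 7 were spread through the gene, and 6 of these summits were nearer to the start of another gene than to that of wb: the nested gene CG32971 for 3, the non-coding genes CR44729 and CR43639 for 1 each, and ms(2)34Fe for 1, at 11969 bp. No wb summit was in all 3 replicate lists, and 4 were in a single one.

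The collagen IV genes Col4a1 and vkg lie head to head, with 1418 bp between their starts, and share 1 peak in that interval (2L, 5029320 to 5029739, signal 45.2). Its summit was 79 bp upstream of Col4a1 and 1339 bp upstream of vkg. It ranked 8080 in replicate 1 and 8227 in replicate 3, at 26.9% and 33.0% of list length, and was not in the list of replicate 2. Each gene had 1 further peak that was found in 1 replicate: in a Col4a1 coding exon 1822 bp downstream of a start (29.4, replicate 1) and in a vkg intron (28.3, replicate 3). No optimal peak lay in either window.

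The perlecan gene trol is the largest of the set, at 74968 bp on the X chromosome, and held 7 pooled peaks. The optimal one (X, 2533861 to 2534280, signal 122) had its summit 11356 bp from the nearest trol start, within the second intron of the canonical transcript, which is 20062 bp long. It was peak 2946 of the pooled list and ranked 2936, 9011 and 1981 in replicates 1, 2 and 3, or 15.9% ± 12.3 of list length (SD, n = 3). Replicate 2 stood apart from the other two here. Without it the mean rank was at 8.87% of list length. At 2261 bp from this summit towards the start, in the same intron, a peak of signal 67.1 had ranks of 5050, 18436 and 4663, again lowest in replicate 2. Another peak found in every replicate lay 1560 bp upstream of the gene (57.3; ranks 18338, 10177 and 7294). The remaining 4 had signals from 29.0 to 54.5 and lay in introns: the second intron for 3 and the eighth for 1. No trol peak was within 500 bp of a start site, and 64.5% of the genes with a pooled peak had a strongest signal below that of trol.

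By their strongest peak, Ndg and Ppn were the lowest of the 9 genes with a pooled peak. Ndg (2R, 10313891 to 10322104) had 3 pooled peaks of 28.5 to 32.7, 2 of them in replicate 2 alone and 1 in replicate 3 alone, and the upstream one was 10 bp nearer to the start of the odorant-binding protein gene Obp46a than to that of Ndg. The single Ppn peak (3R, 28539398 to 28539817, signal 29.7), in the first intron 716 bp downstream of the start of this proteoglycan-like glycoprotein gene, ranked 18767 in replicate 1 and 8922 in replicate 3. It was not in the list of replicate 2. SPARC, which encodes a collagen-binding glycoprotein, had no pooled peak. Single replicates had summits there: in replicate 2 at 923 bp downstream (rank 17279) and 1811 bp upstream of a start (rank 25480), and in replicate 3 at 585 bp downstream (rank 12598). The summits of replicates 2 and 3 inside the gene were 338 bp apart.

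**Figure D2:**
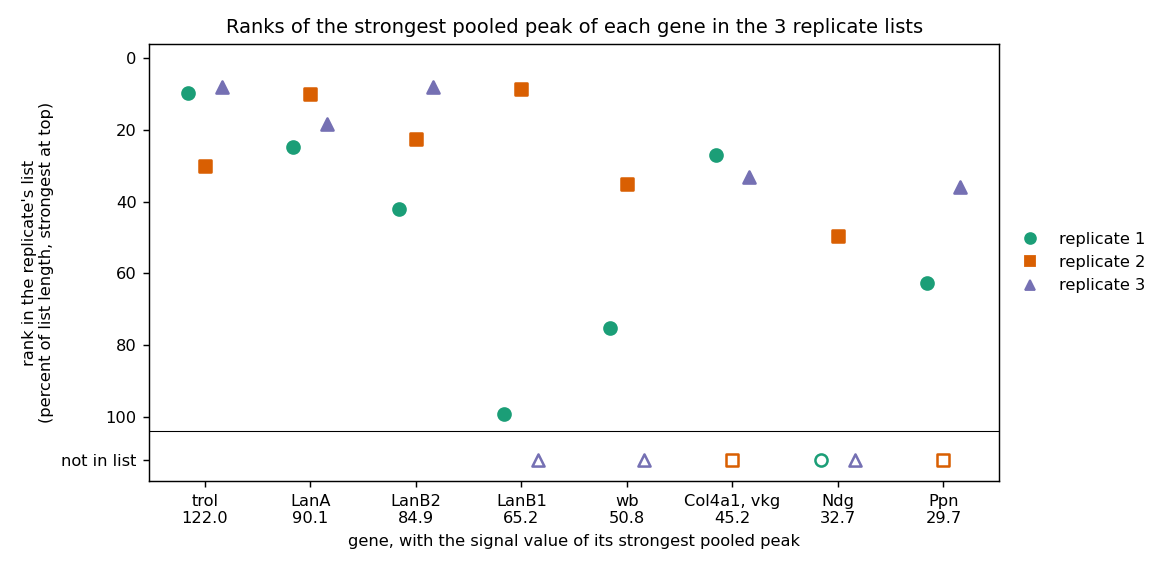
Rank of the strongest pooled peak of each gene in the replicate lists, as a percentage of list length with the strongest at the top (y axis), for genes ordered by the signal value under each name; open symbols mark a replicate whose list lacks the site. The peaks of trol, LanA and LanB2 were in all 3 lists, and the other 5 peaks lacked at least 1 replicate.

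Support by the replicates separated trol, LanA and LanB2 from the rest. A summit counted as found when it lay inside a peak of the replicate's whole list. Of the 36 peaks, 8 were found in all 3 replicates (22.2%, exact 95% interval 10.1 to 39.2%): 4 at LanA, 3 at trol and 1 at LanB2. Over all pooled peaks the share was 37.4%. Outside the optimal list it was 7 of 35 at the basement membrane genes (20%, 8.44 to 36.9%), against 24.5% of such peaks in general, a share that lies within the interval. These intervals treat peaks as separate and may be too narrow. Many peaks lie in the same gene, and 4 summits share a replicate peak with another, among them the LanA pair. A further 17 were found in a pair of replicates (47.2%, against 37% of all pooled peaks) and 11 in a single one (30.6%, against 23.4%). Outside the optimal list these shares were 48.6% and 31.4%, near the 44.4% and 28.5% of such peaks in general. Replicates 1, 2 and 3 held 25, 26 and 18 of the 36 summits, or 69.4%, 72.2% and 50.0%, against 77.1%, 74.1% and 58.5% of all pooled summits. Without replicate 3, 21 of the 36 summits were found in both other replicates, against 59.3% of all pooled summits. No summit lay among the 4246 strongest peaks of every replicate, against 12.3% of all pooled summits. In at least 1 replicate 6 did, and the matching share of all pooled summits is not given here. They were the trol peak in replicates 1 and 3 and both LanA intron summits in replicate 2, where they fall in the same peak. The others were the Cdc14 and LanB1 start peaks in replicate 2 and the LanB2 upstream peak in replicate 3. A pooled peak contains the reads of all replicates, so these counts describe how evenly a site ranked and are no independent test of it.

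Promoters held a share close to that among weak peaks in general, which lay within the interval. Within 500 bp of a start site lay 10 of the 35 peaks outside the optimal list (28.6%, exact 95% interval 14.6 to 46.3%), against 29.6% of such peaks overall. Of these 10, 8 were at a start of LanA, LanB1, LanB2, wb or Col4a1, 1 was at the Cdc14 start and 1 at the non-coding gene CR44729 inside wb. Introns held 20 of all 36 summits (55.6%), against 37.6% of all pooled and 27.7% of optimal summits. The sets are unlike, since these 36 had to lie in a gene or the 2 kb before it. The compared sets also include intergenic summits far from genes. Coding exons held 3 and intergenic sequence 3. In the optimal list 60.8% of summits were within 500 bp of a start, whereas the 1 optimal peak of these genes was intronic. By the canonical transcripts of these genes alone, 22 summits were in introns, 9 of them in the first intron. Unlike the 20, this count takes in summits within 500 bp of a start and leaves out those in a Cdc14 intron.

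**Figure D3:**
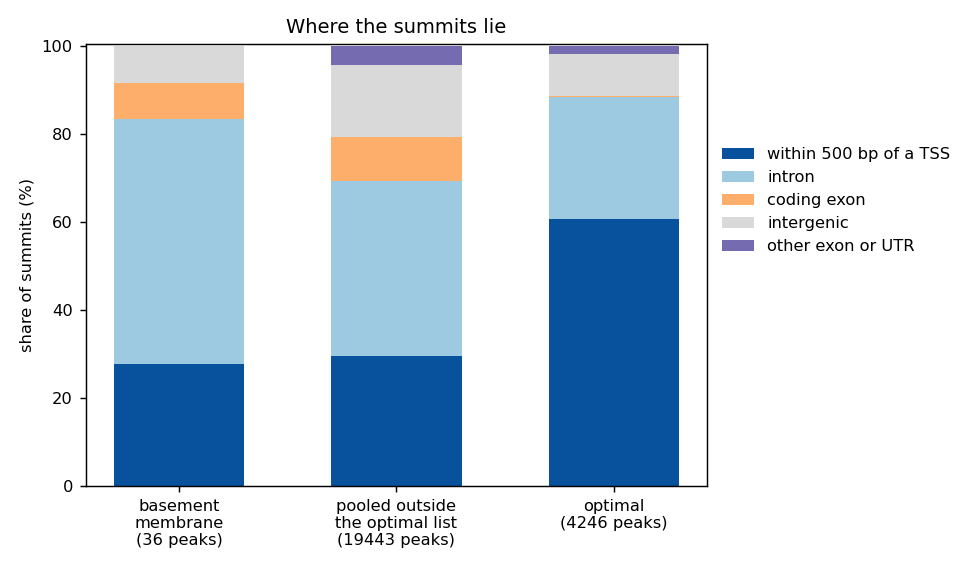
Share of summits (y axis, percent) by position, for the 36 peaks of the basement membrane genes, the 19443 pooled peaks outside the optimal list and the 4246 optimal peaks. The promoter share of the first group (27.8%) is near that of the second and lower than the 60.8% of the optimal peaks, and introns make up 55.6% of it. Only the first group was limited to genes and the 2 kb before them.

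E-boxes were about as common under these summits as elsewhere. In the window reaching 100 bases to each side of the summit, 25 of the 36 peaks held CANNTG on either strand (69.4%), against 65.9% of pooled peaks outside the optimal list and 62.1% of optimal peaks. The CACATG class, which includes its reverse complement CATGTG, was in 6 of the 36 windows (16.7%), against 9.94% and 7.75%. It includes the trol and LanA sequences printed above. Of the other 9 classes, 4 had shares above both of the compared sets: CAATTG in 6 windows (16.7%, against 7.96% and 8.03%), CAACTG in 8 (22.2%, against 13.1% and 10.5%), CATATG in 5 (13.9%, against 6.46% and 7.37%) and CAGATG in 5 (13.9%, against 8.81% and 7.04%). Below both were CAAGTG in 3 (8.33%, against 13.8% and 12%), CACCTG in 2 (5.56%, against 8.25% and 6.15%) and CACGTG in none (against 2.51% and 2.61%). CAAATG in 7 (19.4%, against 19.7% and 17.9%) and CAGCTG in 4 (11.1%, against 10.5% and 11.2%) lay between them. GATAA, the core recognised by GATA factors, was in 15 (41.7%, against 33.6% and 41.5%) and GAGAG in 9 (25.0%, against 23.8% and 21.5%). With 36 windows the shares rest on few matches, and they are a description without a test. The median GC content of the windows was 43.0%, against 41.8% and 36.8%.

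Genes that act on or bind the basement membrane were counted in the same way. A list of 26 receptors, modifying and secretory genes, proteases and other matrix genes had 15 with an optimal peak (57.7%, exact 95% interval 36.9 to 76.6%), against 30.6% of all protein-coding genes. The 44.3% and 51.6% of genes in bins 9 and 10 by window length lie within that interval. The median strongest signal over its 25 genes with a pooled peak was 96.2, against 82.6 over all genes with one. Per 10 kb of window, however, the list held 0.360 optimal peaks, fewer than the 0.489 over all protein-coding genes, and several of its windows are long (65.7 kb for dally and 46.1 kb for mew). Among its 15 genes with an optimal peak, the lowest strongest signals were 93.4, 95.7 and 96.2, just above the lowest optimal signal of 92.7. The list was chosen with earlier results known, and its difference from the basement membrane genes was not tested. Of the receptors, 6 of 7 had an optimal peak, beside the same 30.6% of all genes and the 44.3% and 51.6% in bins 9 and 10 by window length. The dystroglycan gene Dg had a promoter peak of signal 404 (ranks 394, 1095 and 185), and the beta integrin gene mys one of 303 (ranks 816, 1034 and 465), both within 500 bp of their own starts. Both encode parts of laminin receptors. The laminin genes had no optimal peak, against 30.6% of all genes and the 44.3% and 51.6% in bins 9 and 10. The strongest peaks of LanA and LanB2, at 90.1 and 84.9, lay under the lowest optimal signal of 92.7. The contrast was drawn after the values were seen and was not tested. Among the receptors, the integrin alpha gene mew followed with 164 in an intron, where the nearest start, at 2319 bp, was that of another gene. The integrin alpha gene if had 149 at its promoter (ranks 2619, 2176 and 2059). Of the genes for collagen secretion and modification 4 of 8 had an optimal peak (50%, against 30.6% of all genes). Tango1, needed to load collagen for secretion, had the strongest at 420 (ranks 324, 301 and 473), 178 bp from the start of a neighbouring gene. The peroxidasin gene Pxn had 174, at 67 bp from the start of another gene, and the lysyl hydroxylase gene Plod had 120 at 34 bp from its own start (ranks 3056, 4902 and 2112).

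None of the 3 remodelling genes had an optimal peak, against 30.6% of all genes. They are Mmp1, Mmp2 and Timp, named after their values were seen, with strongest signals of 63.8, 83.3 and 51.1. Of the other matrix genes 5 of 8 had one (62.5%, against the same 30.6% and the 51.6% in bin 10 by window length). Many of their windows are long (41.0 kb for dlp and 65.7 kb for dally). The strongest were at the glypican genes dlp (334, ranks 598, 414 and 861) and dally (165), both in introns, followed by the netrin gene NetA (129). The lysyl oxidase gene Loxl2 had no pooled peak. In 8 of the 15 genes the strongest peak was nearest to the start of another gene.

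**Figure D4:**
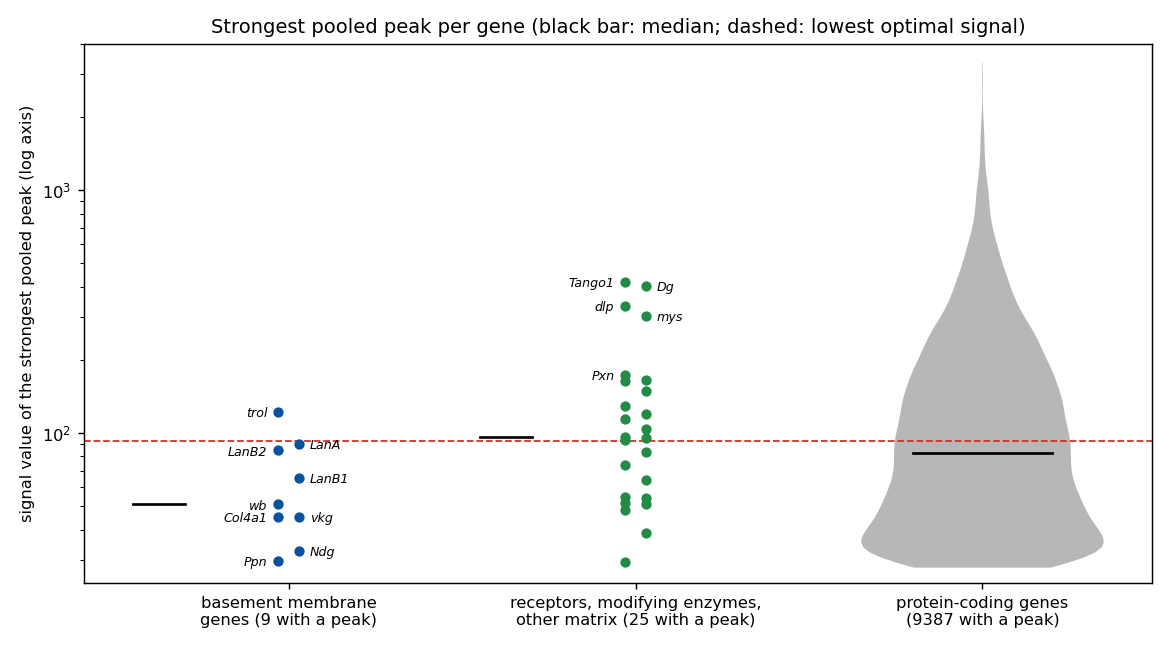
Signal value of the strongest pooled peak (y axis, log scale) for each basement membrane gene with a peak, each gene of the receptor, enzyme and matrix list, and the distribution over 9387 protein-coding genes; black bars are medians (50.8, 96.2 and 82.6) and the dashed line is the lowest optimal signal, 92.7. Of the basement membrane genes, trol alone is above the line.

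Optimal peaks did stand beside several of these genes, at the starts of neighbours, which are named here after their values were seen. The nearest one to LanB1 lay 646 bp beyond its 3′ end (signal 172, 74 bp from the start of the antisense RNA gene CR45008), and that of vkg 1194 bp beyond its 3′ end, at SelT (178). SPARC had one 2458 bp beyond its 3′ end, at ball (365; ranks 446, 407 and 699), and another 3849 bp upstream, at ms(3)K81 (240; ranks 914, 1203 and 1385). Upstream of LanA one lay at 2368 bp, 188 bp from the start of CG33946 (96.6; ranks 3546, 6748 and 3308). Upstream of Ndg an overlapping pair lay at 3860 and 4071 bp, at the starts of CG12909 (103) and RNaseZ (161). In contrast, the nearest optimal summit was 27.4 kb from wb, 45.2 kb from Ppn and 69.2 kb from LanB2. Extending the window to 5 kb upstream therefore raised the number of genes with an optimal peak to 4 of 10 through these neighbours, against 38.4% of all genes under the same window.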

How the data were processed

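HLH54F-GFP ChIP-seq was analysed in 3 biological replicates, 1 group, from the deposited dm6 peak lists. The authors derived each replicate list from its own dm6 alignment and a control file, the pooled list from all 3 alignments and that control, and the optimal list from these by the irreproducible discovery rate procedure, per the file records. For the aligner, peak caller and settings, nothing was given in the sources used here. The deposited signal value of each peak (column 7) has an unstated scale and served to describe and rank peaks. An alternative ranking took the −log10 q-value as deposited. Read depth is unknown, so intervals cover counting error over genes or peaks.

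Summits were start plus deposited offset. Genes and start sites came from Ensembl release 115 (BDGP6.54), leaving out transposable elements and processed microRNA ends, sequence from RefSeq release 6, whose arm lengths contained all peaks. Counts used Python 3.11.15 and numpy 2.4.6; position and rank functions were tested on constructed data. Exact intervals are Clopper-Pearson at 95% and treat genes or peaks as separate, which peaks of the same gene may not be. The members and lists were chosen with earlier results of these data known. All 10 members were described; of 26 further genes, those with an optimal peak (up to the 10 of highest signal) or no pooled peak were named. The symbol Lox was matched to Loxl1 by synonym. Lists in dm3 were not used. There was 1 group, so no test was run.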

Additional observations from a re-analysis of the deposited data

How the results depend on the processing

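The count of genes with a pooled peak (9) stayed between 9 and 10 and that of pooled peaks (36) between 29 and 46 under windows of 1 kb, 5 kb or no upstream sequence, assignment to the nearest protein-coding start and any overlap of the peak. Under the same settings 1 gene had an optimal peak, except with 5 kb upstream, where 4 genes had 5 such peaks. Counting pooled peaks at or above the median optimal signal (154) left 0 basement membrane genes with 0 peaks, and 7 of the 26 further genes instead of 15. Under this cut 18.6% of all protein-coding genes had such a peak, instead of 30.6%. Summits in all 3 replicate lists numbered 8 of 36, against 37.4% of all pooled summits. With each list reduced to its 4246 strongest peaks there were 0, against 12.3%. When 1 replicate was left out there were from 9 to 21, against 43.9% to 59.3%. Within 1 kb of a start lay 19 summits instead of 10, against 47.5% of all pooled summits instead of 35.2%. Ranking by the q-value moved no mean rank by more than its SD over replicates (LanA 17.0%, LanB2 24.8% and trol 15.7%). No paired analysis was possible because there is a single group. Unknown read depth limits what absence from a list can show. The list lengths do so too: those of replicates 1 and 2 both end at 30000 peaks, and that of replicate 3 holds 24914.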
